A study of Homo sapiens with 5 samples.

Results

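The genes that write and erase histone acetylation were followed in RNA-seq libraries of RPE1, an established human cell line from retinal pigment epithelium. They comprise 11 zinc-dependent histone deacetylases (HDACs), 7 sirtuins, 10 lysine acetyltransferases, 3 nuclear receptor coactivators and 3 corepressor scaffolds. These 34 genes were taken from the table of 26485 genes by their symbols alone, a rule that uses no measured value. All 34 were found in the table, and all 34 were among the 14187 genes that passed the filter on low counts. They held between 0.171% and 0.203% of the counts of a library.

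Acetyltransferases move an acetyl group from acetyl-CoA to lysines of histones and other proteins, which loosens the contact of histone tails with DNA and creates docking sites for bromodomain proteins. HDACs of classes I, II and IV remove the group with a zinc ion in the active site, whereas sirtuins consume NAD for the same step, which ties them to metabolism. Most of these enzymes work inside large complexes such as SIN3, NuRD, NCOR, SAGA and NuA4, and several act at sites of DNA damage.

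All cells were RPE1 of wild-type genotype, treated for 18 h, and they differed in the agent. DMSO, the solvent control, was given in 2 libraries, doxorubicin at 0.2 μM in 2 libraries and doxorubicin at 0.34 μM in 1 library, which has no replicate. Doxorubicin is an anthracycline that intercalates into DNA and poisons topoisomerase II. These doses are those of the sample labels, and the treatment text writes the same digits on a larger scale. Following the study's methods, the 3 doxorubicin libraries formed 1 group against the 2 DMSO libraries. The methods call the libraries biological replicates, and p-values measure only the spread between them.

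The libraries held between 23773061 and 36725345 counts on genes. MKI67, a marker of cycling cells, was at 1259 ± 219.9 CPM (counts scaled to library size, TMM-normalized; SD, n = 2) in the DMSO group and at 50.2 ± 14.0 CPM (SD, n = 3) under doxorubicin, and CDKN1A, the p53 target that encodes the cell cycle inhibitor p21, had a log2 fold change of 3.39. Markers of the labelled cell type were mixed. PAX6, OTX2 and MITF were detected in every library, whereas RPE65, TYR, RLBP1 and TTR, which mark mature pigment epithelium, stayed under 1 CPM. The summed level of the 10 pigment epithelium markers ranged from 102 to 167 CPM in DMSO and from 118 to 123 CPM in doxorubicin. Within it, the log2 fold change of PMEL was 2.29 (adjusted p = 0.0264 in edgeR and 0.00868 with DESeq2) and that of BEST1 was 1.88 (adjusted p = 0.0823 in edgeR and 0.0161 with DESeq2). The other tested genes of the list did not share this rise. Their log2 fold changes were -0.46 for PAX6, -0.02 for OTX2, 0.05 for MITF and -1.04 for SERPINF1 (adjusted p from 0.246 to 0.953 in edgeR). The summed level of the 6 epithelial markers, led by KRT8 and KRT18, did not overlap between treatments. It ranged from 597 to 724 CPM in DMSO and from 988 to 1218 CPM in doxorubicin. Within it, KRT7 overlapped, and KRT19, CDH1 and EPCAM stayed under 1 CPM. The part of these shifts in the members' values was not tested. The 7 mesenchymal markers, led by FN1 and VIM, summed to between 15726 and 26439 CPM in DMSO and between 17035 and 26076 CPM in doxorubicin. The 6 markers of blood and endothelium summed to at most 0.744 CPM in DMSO and 3.03 CPM in doxorubicin, with CD3E and HBB at 0 counts throughout. Among them, PTPRC had 5 and 7 counts in DMSO, 25 and 53 at 0.2 μM and 72 at 0.34 μM. Its log2 fold change was 2.86 (adjusted p = 0.0212 in edgeR and 0.000571 with DESeq2). VWF, the other tested gene of this list, had 1.32 (adjusted p = 0.228 in edgeR). In such bulk libraries, fewer cells of a kind and less RNA per cell cannot be told apart.

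In untreated cells the members spanned a 115-fold range of level per length (mean of the DMSO libraries, TMM-normalized CPM per kilobase of exon). HDAC1, a class I deacetylase found in SIN3, NuRD and CoREST, was at the top with 15.4 and 17.1 CPM per kilobase in DMSO replicates 1 and 2. NCOR1, the scaffold that carries HDAC3, followed with a mean of 14.2, then KAT2A (GCN5 of the SAGA complex) with 13.2, EP300 with 13 and HDAC2 with 11.9. Next came HDAC7 with 10.8, HAT1 with 10.4, HDAC3 with 9.99, SIRT1 with 9.86 and CREBBP with 9.60. The bottom of the order was taken by SIRT5 with 1.12, HDAC4 with 0.989, HDAC8 with 0.849 and SIRT4 with 0.141 CPM per kilobase. The place of HDAC8 depended on the length used. Per kilobase of its longest transcript it was at 3.42 and in place 28, above SIRT5 at 2.05 and in place 31. Of the 33 neighbouring pairs in the order per kilobase of exon, 30 overlapped between the DMSO libraries and cannot be ranked against each other. The 3 steps without overlap lay between HDAC2 and HDAC7, between SIRT5 and HDAC4 and between HDAC8 and SIRT4. When the mean of the doxorubicin libraries was put in order the same way, HAT1 moved from place 7 to place 20 and SIN3A from place 12 to place 17, whereas SIRT2 moved from place 18 to place 10 and HDAC5 from place 20 to place 12. Moves at least as large as that of SIN3A were also those of SIRT6 (17 to 11), HDAC10 (24 to 18), KAT7 (21 to 27) and NCOA3 (11 to 6). Since most neighbours cannot be ranked, these moves are descriptions only.

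**Figure D1:**
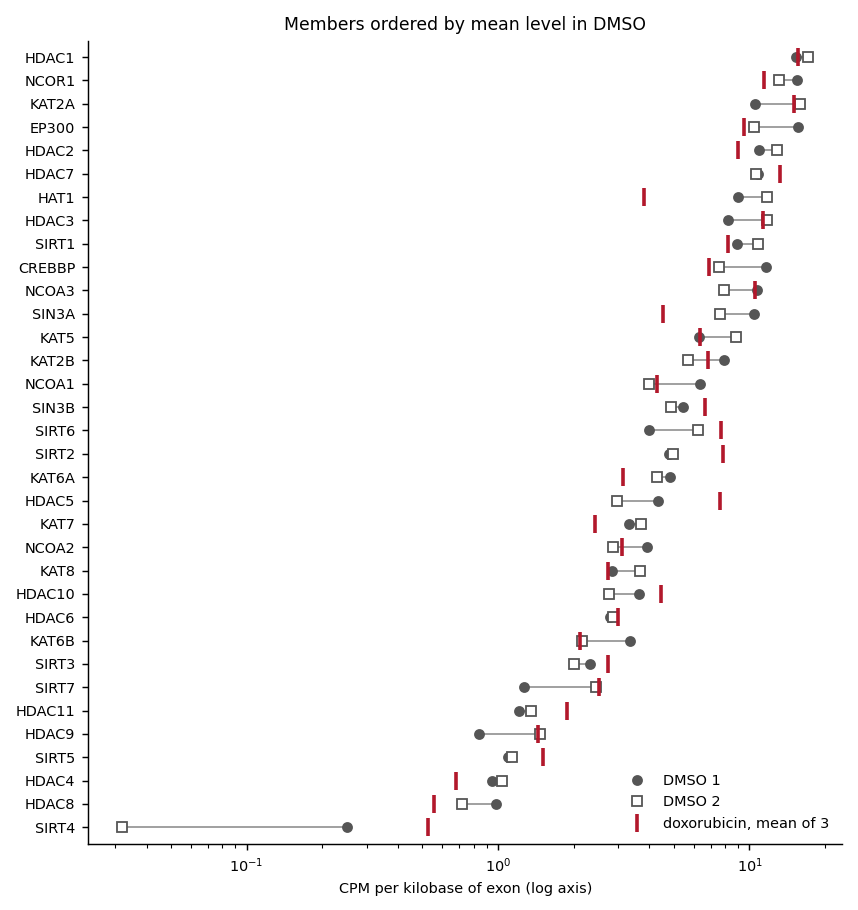
Level of each of the 34 members in TMM-normalized CPM per kilobase of exon on a log axis, with a filled circle and an open square for the 2 DMSO libraries and a red bar for the mean of the 3 doxorubicin libraries. HDAC1 is highest with a DMSO mean of 16.2 and SIRT4 lowest with 0.141, and the red bar of HAT1, at 3.80, lies far left of its DMSO values of 9.03 and 11.7.

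After doxorubicin, 1 of the 34 members passed the threshold of an adjusted p of 0.01 in edgeR's quasi-likelihood test, against 4.02% of all genes tested. This member, HAT1, was lower (2.73% of all genes were called lower), and 0 members were higher (1.29% of all genes). At an adjusted p under 0.05, 2 members passed, HAT1 and SIN3A, against 13.6% of all genes. DESeq2, the tool of the study's methods, called 2 members at 0.01, again HAT1 and SIN3A, against 14.1% of the genes it tested. Without adjustment, 9 of the 34 members had an edgeR p under 0.05, against 30.8% of all genes. Log2 fold changes were positive for 17 members and negative for 17, and 51.1% of all genes were positive. Their median was -0.02, against 0.01 over all genes, and the median of their absolute values was 0.388, against 0.378. The DMSO and doxorubicin libraries did not overlap for 19 members, 9 with higher and 10 with lower values in doxorubicin, and 47.7% of all genes were without overlap.

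The precision of these estimates was limited by the few libraries. The 95% interval of the log2 fold change lay between -1 and 1 for 23 members and reached beyond for 11. The DMSO libraries differed by a median of 0.422 (absolute log2 difference of CPM) over the members and the 0.2 μM libraries by 0.244, against 0.365 and 0.293 over all genes.

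**Figure D2:**
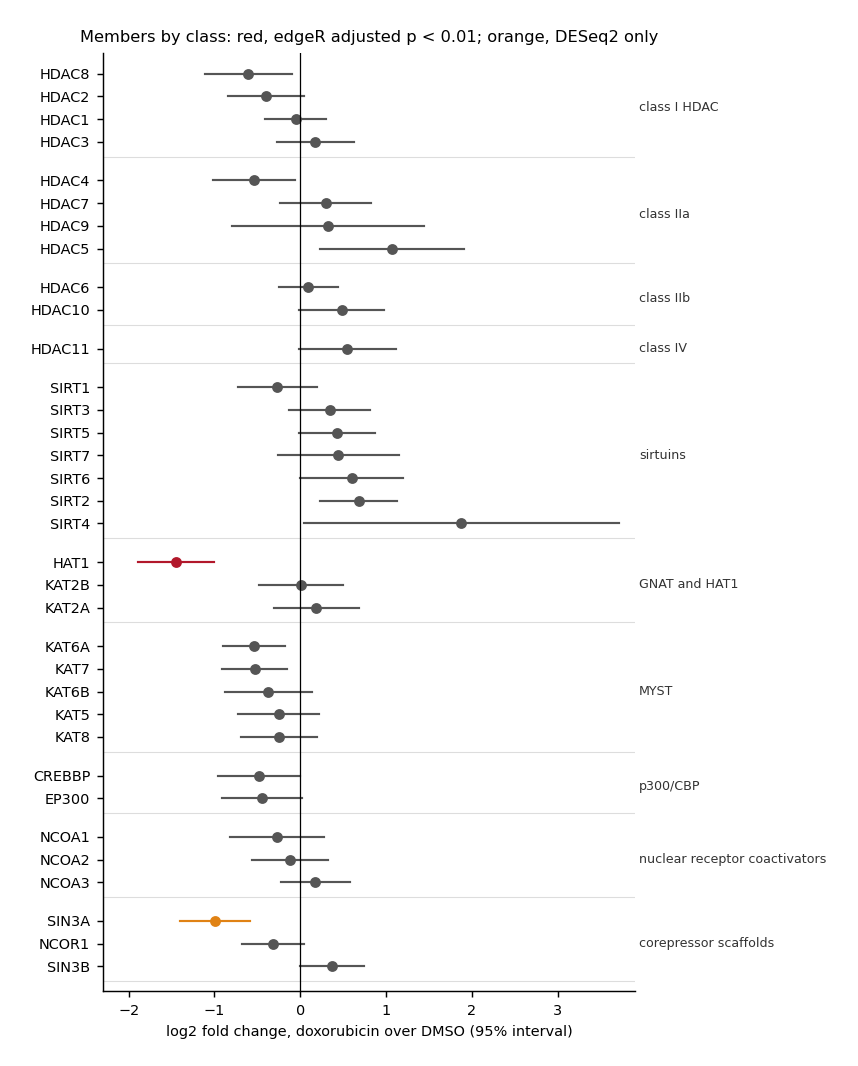
Log2 fold change of doxorubicin over DMSO with its 95% interval for each of the 34 members, in rows by class. HAT1 (red, -1.45) passed an adjusted p of 0.01 in edgeR, SIN3A (orange, -0.99) passed it in DESeq2 but not in edgeR, and the other 32 (gray) passed it in neither.

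HAT1 encodes the acetyltransferase that acetylates newly made histone H4 before it is laid down in chromatin, working with the histone chaperone RBBP7. Its counts were 1608 and 2031 in the DMSO libraries, 690 and 683 at 0.2 μM and 808 at 0.34 μM. In TMM-normalized CPM these were 61.3 and 79.6 in DMSO, 26.7 and 28.4 at 0.2 μM and 22.3 at 0.34 μM. Every doxorubicin library lay below both DMSO libraries, by more than the spread within either treatment. The level fell 2.73-fold, from 70.4 ± 12.9 CPM (SD, n = 2) to 25.8 ± 3.16 CPM (SD, n = 3). This was -1.45 on the log2 scale (standard error 0.186, 95% interval -1.89 to -1.01, adjusted p = 0.00544 in edgeR's quasi-likelihood test). The adjusted p was 4.31e-09 with DESeq2 and 0.00589 with limma voom.

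With 1 library left out in turn, edgeR did not call HAT1 in any of the 5 fits. The adjusted p was 0.0109 without DMSO replicate 1, 0.0232 without DMSO replicate 2, 0.0242 and 0.0181 without replicate 1 or 2 of 0.2 μM and 0.0274 without the 0.34 μM library. The log2 fold change stayed between -1.64 and -1.27. HAT1 moved with the markers of cycling cells: MKI67 had a log2 fold change of -4.65 and TOP2A of -2.75, and the part of cell cycle state in the HAT1 result was not tested. HAT1 lies on chromosome 2 from 171922461 to 171983686 (GRCh38.p14), where 2 other annotated genes, LOC100420002 and LOC124905590, overlap it, so that some of its reads could be theirs.

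SIN3A encodes the scaffold on which HDAC1 and HDAC2 are assembled into the SIN3 corepressor complex. Its counts were 3516 and 2494 in DMSO, 1584 and 1314 at 0.2 μM and 2130 at 0.34 μM, which is 134 and 97.7 CPM in DMSO, 61.2 and 54.6 CPM at 0.2 μM and 58.7 CPM at 0.34 μM. The treatments did not overlap, and the 3 doxorubicin libraries lay closer together than the DMSO pair. The log2 fold change was -0.99 (standard error 0.173, 95% interval -1.41 to -0.58), with an adjusted p of 0.0144 in edgeR, 3.42e-05 with DESeq2 and 0.0169 with limma voom. It therefore missed the threshold of 0.01 in edgeR and passed it with DESeq2. With single libraries left out in turn, the adjusted p of edgeR lay between 0.0155 and 0.0691. SIN3A spans chromosome 15 from 75369379 to 75455815 (GRCh38.p14) and contains the pseudogene RPL13P4.

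SIN3B, the paralog that scaffolds a related complex, had higher values in all doxorubicin libraries, with 47.6 and 42.9 CPM in DMSO, 62.3 and 52.2 CPM at 0.2 μM and 60.7 CPM at 0.34 μM. Its log2 fold change of 0.37 (standard error 0.155, 95% interval -0.00 to 0.74) did not pass the threshold (adjusted p = 0.165 in edgeR). The third scaffold, NCOR1, went from 222 ± 26.2 CPM (SD, n = 2) to 178 ± 10.6 CPM (SD, n = 3), without overlap (log2 fold change -0.32, adjusted p = 0.205 in edgeR).

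**Figure D3:**
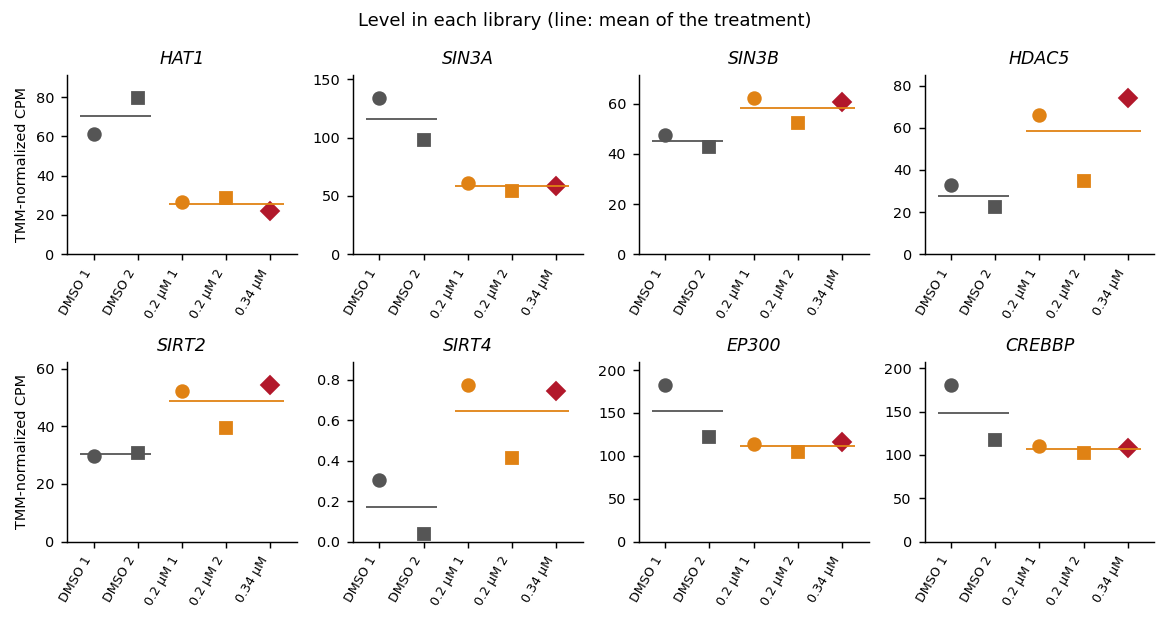
TMM-normalized CPM of 8 members in each of the 5 libraries, on linear axes that start at 0, with a line at the mean of each treatment. HAT1 and SIN3A lie lower in all 3 doxorubicin libraries than in both DMSO libraries, HDAC5, SIRT2, SIRT4 and SIN3B lie higher, and EP300 and CREBBP follow each other from library to library.

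The start regions of the 2 members with the most negative estimates are shown because promoters of genes expressed in the cell cycle often carry E2F sites, CHR elements or CCAAT boxes. Each sequence gives the 250 bases before the annotated start, 5′ to 3′ on the strand of the gene, from RefSeq on GRCh38.p14, and capitals mark a CCAAT box, read on either strand. The HAT1 window is chr2:171922211-171922460 on the plus strand, and the SIN3A window is chr15:75455816-75456065 on the minus strand.
HAT1: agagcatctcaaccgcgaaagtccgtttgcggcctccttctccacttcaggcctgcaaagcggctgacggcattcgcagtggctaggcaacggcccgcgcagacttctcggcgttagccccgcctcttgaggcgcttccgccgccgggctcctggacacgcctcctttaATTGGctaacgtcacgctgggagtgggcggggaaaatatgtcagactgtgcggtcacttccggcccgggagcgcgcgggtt
SIN3A: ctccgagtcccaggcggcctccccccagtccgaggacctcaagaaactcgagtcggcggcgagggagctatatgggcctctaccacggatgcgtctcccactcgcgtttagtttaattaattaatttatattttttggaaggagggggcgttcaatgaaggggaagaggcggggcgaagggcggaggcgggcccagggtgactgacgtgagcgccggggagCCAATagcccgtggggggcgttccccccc
The HAT1 window held CCAAT on the opposite strand, 81 to 77 bases before the start, and the SIN3A window held it on the strand of the gene, 29 to 25 bases before the start. Windows of this kind were given for 29 of the 34 members. CCAAT was present in 11 of these 29, or 37.9%, and in 37.0% of all 27305 genes with a window. An E2F site, searched as TTTGGCGC, TTTCCCGC, TTTGCCGC or TTTCGCGC on both strands, was found for SIRT6 and at a second start of SIN3A, 4125 bases into the gene, which is 6.90% of the members, and in 3.40% of all genes. A CHR element, searched as TTTGAA or TTCGAA on both strands, was found for HDAC4, KAT7, NCOR1 and SIRT4, or 13.8% of the members, and in 17.2% of all genes. All these shares are of the 29 members with a window, and those for CCAAT and CHR were close to the shares in all genes. For E2F only 2 members matched, too few to read a difference. A match of letters does not show that a factor binds.

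Among the class I deacetylases, which are nuclear and supply most histone deacetylation, the direction was negative for 3 of 4 and none passed the threshold. HDAC8, the member of the class that works outside the large complexes and deacetylates cohesin, had the lowest adjusted p of the class. Its level was 22.4 and 16.5 CPM in DMSO, 14.3 and 11.4 CPM at 0.2 μM and 12.6 CPM at 0.34 μM, a difference of -0.61 in log2 (standard error 0.211, adjusted p = 0.106 in edgeR). HDAC2 had 167 and 197 CPM in DMSO against 127, 166 and 121 CPM in doxorubicin, where the highest treated library nearly reached the lower control. HDAC1 was at 64.4 ± 4.92 CPM in DMSO (SD, n = 2) and 62.1 ± 5.63 in doxorubicin (SD, n = 3), and the 95% interval of its log2 fold change was -0.41 to 0.31. HDAC3, the catalytic partner of NCOR1, had an interval of -0.27 to 0.63.

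Class IIa holds enzymes that shuttle between nucleus and cytoplasm and bind MEF2 factors, and its members had values of either sign. HDAC5 had 32.9 and 22.6 CPM in DMSO, 66.0 and 34.7 CPM at 0.2 μM and 74.1 CPM at 0.34 μM. All doxorubicin libraries were above both DMSO libraries, but replicate 2 of 0.2 μM came within reach of DMSO replicate 1, and the treated libraries spread widely. The log2 fold change was 1.07 (standard error 0.352, 95% interval 0.23 to 1.91), and neither edgeR (adjusted p = 0.0915) nor DESeq2 (adjusted p = 0.0170) passed it at 0.01. Without that replicate 2, edgeR gave 1.34 with an adjusted p of 0.0296, the lowest of the fits that leave out 1 library. Without replicate 1 of 0.2 μM or the 0.34 μM library it gave 0.99 and 0.87 (adjusted p = 0.214 and 0.254). Without DMSO replicate 1 or 2 the log2 fold change was 1.37 and 0.81. HDAC4 had the opposite sign, with 13.4 and 14.6 CPM in DMSO and 10.9, 8.44 and 9.48 CPM in doxorubicin (log2 fold change -0.54, adjusted p = 0.121 in edgeR). HDAC9 stood out for 1 library, with 41.7 CPM in replicate 2 of 0.2 μM against 14.5 to 25.4 CPM in the other 4. HDAC7 was lower in that same library, at 95.3 CPM, than in the other doxorubicin libraries, at 148 and 149.7 CPM.

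In class IIb, HDAC6, the deacetylase of tubulin, stayed between 40.3 and 45.3 CPM over all 5 libraries. HDAC10, a polyamine deacetylase, had 18.0 and 13.6 CPM in DMSO and between 19.1 and 23.9 CPM in doxorubicin, with a log2 fold change of 0.48 and an adjusted p of 0.170 in edgeR. HDAC11, the only enzyme of class IV, had 6.33 and 7.09 CPM in DMSO and between 8.02 and 11.3 CPM in doxorubicin, with a log2 fold change of 0.55 and an adjusted p of 0.174 in edgeR. For both the treatments did not overlap, and neither passed the threshold.

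Of the sirtuins, 6 of 7 had positive values, with a median log2 fold change of 0.44, and 0 of 7 passed the threshold in edgeR or DESeq2. For 5 of them, SIRT2, SIRT3, SIRT4, SIRT5 and SIRT6, every doxorubicin library was above both DMSO libraries, and 47.7% of all genes were without overlap in either direction. SIRT2, a mostly cytoplasmic enzyme that deacetylates tubulin and histone H4, had 29.8 and 30.8 CPM in DMSO, 52.2 and 39.4 CPM at 0.2 μM and 54.2 CPM at 0.34 μM. The control pair was nearly equal, and the lowest treated library exceeded it by more than that pair differed. The treated libraries, from 39.4 to 54.2 CPM, differed among themselves by more than this gap. The log2 fold change was 0.68 (standard error 0.189, 95% interval 0.23 to 1.13), with an adjusted p of 0.0592 in edgeR and 0.0168 with DESeq2, both short of 0.01. The gene spans chromosome 19 from 38878555 to 38899618 (GRCh38.p14), with no other annotated gene over it.

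SIRT4, a mitochondrial sirtuin, had the largest positive estimate and the weakest data. Its counts were 8 and 1 in DMSO, 20 and 10 at 0.2 μM and 27 at 0.34 μM, all under 1 CPM. The groups did not overlap, yet the upper control, at 0.305 CPM, lay close to the lowest treated library, at 0.416 CPM. The log2 fold change was 1.88 with a 95% interval of 0.04 to 3.72 (adjusted p = 0.155 in edgeR). It ran from 1.06 without DMSO replicate 2 to 3.9 without DMSO replicate 1, so its size rested on the control library with 1 count. The small RNA genes RNU4-1, RNU4-2 and RNU6-1088P lie within its span on chromosome 12.

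The nuclear sirtuins SIRT6 and SIRT7 differed widely between the DMSO libraries. SIRT6, which acts on histone H3 and in DNA repair, had 10.9 and 17.2 CPM in DMSO and 22.9, 17.8 and 23.2 CPM in doxorubicin (log2 fold change 0.60, adjusted p = 0.165 in edgeR). SIRT7, a nucleolar enzyme, overlapped between the treatments, since DMSO replicate 2 at 15.1 CPM exceeded replicate 2 of 0.2 μM at 14.3 CPM. SIRT3 and SIRT5, which work in mitochondria, went from 12 ± 1.31 to 15.2 ± 1.82 CPM and from 12.6 ± 0.372 to 17.0 ± 1.81 CPM (SD, n = 2 in DMSO and n = 3 in doxorubicin). SIRT1, which deacetylates p53, was the exception in sign, with 40.6 and 49.4 CPM in DMSO and 33.8, 44.5 and 34 CPM in doxorubicin. Its groups overlapped, and the 95% interval of its log2 fold change was -0.72 to 0.19.

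Of the acetyltransferases other than HAT1, the MYST family was negative in all 5 members, with log2 fold changes from -0.54 to -0.25 and adjusted p-values in edgeR from 0.0595 to 0.434. KAT6A and KAT7, the catalytic subunits of the MOZ and HBO1 complexes that acetylate histone H3, were the members without overlap. KAT6A had 117 and 103 CPM in DMSO and 73.1, 84.4 and 69.9 CPM in doxorubicin (log2 fold change -0.54, standard error 0.150, adjusted p = 0.0595 in edgeR and 0.0182 with DESeq2). KAT7 had 54.9 and 61.4 CPM in DMSO and 38.9, 44.9 and 36.9 CPM in doxorubicin (log2 fold change -0.53, standard error 0.158, adjusted p = 0.0708 in edgeR and 0.0287 with DESeq2). For both, the gap between the treatment means was larger than the spread within either, yet short of the threshold. KAT6B, KAT5 (TIP60, which activates the damage kinase ATM) and KAT8 (MOF, which acetylates histone H4) overlapped between treatments. KAT5 was at 23.6 and 33.0 CPM in DMSO and between 21.9 and 25.6 CPM in doxorubicin.

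EP300 and CREBBP, which encode the paralogous enhancer acetyltransferases p300 and CBP, had similar values in every library. EP300 had 182 and 122 CPM in DMSO and 114, 104 and 116 CPM in doxorubicin, and CREBBP had 180.3 and 117 CPM in DMSO and 111, 102 and 108 CPM in doxorubicin. DMSO replicate 2 was nearer to the treated libraries than to DMSO replicate 1 for both genes. The log2 fold changes were -0.45 (standard error 0.195, adjusted p = 0.176 in edgeR) and -0.48 (standard error 0.201, adjusted p = 0.164 in edgeR). KAT2A and KAT2B, the alternative catalytic subunits of SAGA and ATAC, overlapped between treatments, with log2 fold changes of 0.19 and 0.01. The coactivators NCOA1, NCOA2 and NCOA3, which recruit p300 and CBP to nuclear receptors, overlapped as well, with log2 fold changes of -0.27, -0.12 and 0.17. Their DMSO libraries differed by a median of 0.449 on the log2 scale and their 0.2 μM libraries by 0.0524.

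Ratios of the counts of related members within a library do not depend on the scaling of libraries. They are given as descriptions for 10 pairs, chosen with the values known. The ratio of SIN3A to SIN3B counts was 2.82 and 2.28 in DMSO, 0.984 and 1.05 at 0.2 μM and 0.966 at 0.34 μM, so that SIN3A went from the more counted gene to about equal counts. The ratio of HDAC4 to HDAC5 was 0.407 and 0.649 in DMSO, 0.165 and 0.243 at 0.2 μM and 0.128 at 0.34 μM, a mean change of -1.57 on the log2 scale. The ratio of HDAC6 to HDAC10 was 2.23 and 3.03 in DMSO and between 1.86 and 2.14 in doxorubicin. These 3 pairs did not overlap between treatments, and the other 7 did. The share among ratios of other genes was not computed, and 47.7% of single genes were without overlap, so nothing is read from this count. The ratio of EP300 to CREBBP was the tightest, between 1.01 and 1.08 in all 5 libraries, although each of the genes varied between the DMSO libraries. The ratio of HDAC1 to HDAC2 was 0.524 in replicate 1 of 0.2 μM and 0.528 at 0.34 μM, and in replicate 2 of 0.2 μM it was 0.336, next to the 0.364 and 0.344 of DMSO.

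**Figure D4:**
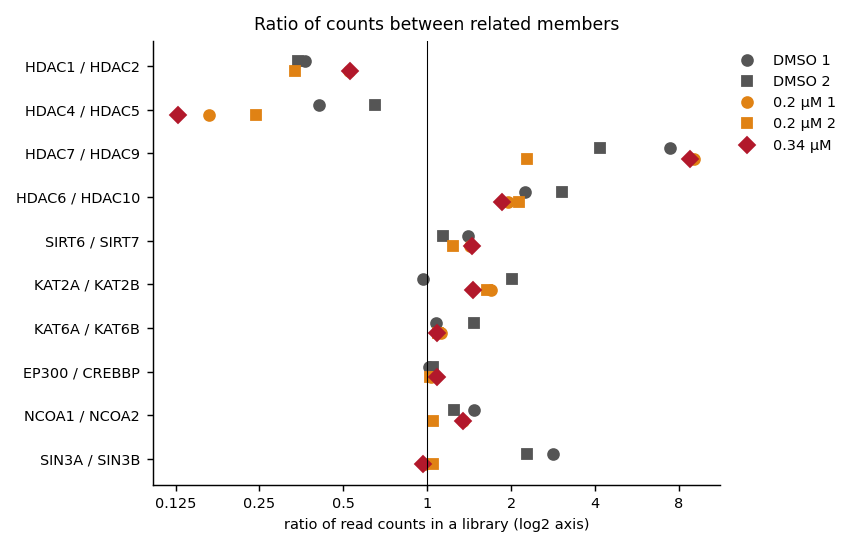
Ratio of read counts between the 2 members of each of 10 pairs in each library, on a log2 axis, with gray marks for DMSO, orange marks for 0.2 μM and a red diamond for 0.34 μM. The SIN3A to SIN3B ratio lies at 2.82 and 2.28 in DMSO and between 0.966 and 1.05 in doxorubicin, and the EP300 to CREBBP ratio stays between 1.01 and 1.08.

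The higher dose was compared with the lower in a fit of 3 conditions, where the lone 0.34 μM library is assumed to vary like the others. With edgeR, 0 of the 34 members passed the threshold, as did 0% of all genes. At an unadjusted p under 0.05 there were 0 members, against 22 of the 14187 genes tested. With so few genes past either level, 0 members says little about an effect of dose. DESeq2 called 0 members. The differences of 0.34 μM from 0.2 μM ran from -0.76 for HDAC9 (standard error 0.602) to 0.56 for HDAC5 (standard error 0.427, unadjusted p = 0.234 in edgeR), the smallest p of the members. For HDAC9 the 0.34 μM library was like replicate 1 of 0.2 μM, at 17.1 and 16.3 CPM, and unlike replicate 2. HAT1 differed by -0.31 (95% interval -1.01 to 0.39) and SIN3A by 0.02 (95% interval -0.67 to 0.70). Without replicate 1 or without replicate 2 of 0.2 μM, each dose was left with 1 library, so no p-values are read from either fit.

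Other genes of the acetylation pathway were read from 13 lists of complex subunits, readers, cofactor supply and chaperones. Of 141 genes, 137 were tested, 106 had a negative and 31 a positive log2 fold change (48.9% of all genes were negative), with a median of -0.32. The threshold was passed in edgeR by 11 of them, or 8.03%, 10 lower and 1 higher, against 4.02% of all genes. With DESeq2 it was passed by 24 of the 137, against 14.1% of all genes, and at 0.05 in edgeR by 23, against 13.6%. The chaperones that carry new histones with HAT1 held 5 of the 11 edgeR calls at 0.01, all lower, among 8 genes with negative values. The share of 8.03% therefore rested in large part on this list and is not read as a trait of the whole pathway. CHAF1B and CHAF1A, subunits of the CAF-1 complex that deposits histones behind the replication fork, had log2 fold changes of -2.82 and -2.28 (adjusted p = 0.00150 and 0.00163 in edgeR). ASF1B, which hands histones H3 and H4 to CAF-1, had -2.36 (adjusted p = 0.00808 in edgeR), and NASP, which guards the soluble pool of H3 and H4, had -1.65 (adjusted p = 0.00270 in edgeR). RBBP7, the partner of HAT1 and a subunit of NuRD, fell from 184 ± 16.8 CPM (SD, n = 2) to 88.3 ± 4.58 CPM (SD, n = 3), with a log2 fold change of -1.06 (adjusted p = 0.00581 in edgeR). RBBP4, ASF1A and HIRA, the last of which deposits histones outside replication, had values of -0.47, -0.19 and -0.29 and did not pass. In the fits that leave out single libraries, CHAF1A and CHAF1B were each called in 3 of 5, NASP in 1, and ASF1B and RBBP7 in 0.

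In each of the complexes that hold the deacetylases, edgeR called 0 or 1 gene, and with 4.02% of all genes called, lists of this size say little. In NCOR/SMRT, TBL1X, which exchanges corepressors for coactivators, fell by 1.26 on the log2 scale (adjusted p = 0.00623 in edgeR), 1 of 5 genes. NuRD had 1 of 12 lower, RBBP7. The SIN3, CoREST and MiDAC lists had 0 of 13, 0 of 7 and 0 of 3 in edgeR. DESeq2 called SAP30, SAP130 and ING1 of SIN3, ELMSAN1 of MiDAC and 3 genes of NuRD lower. In NCOR/SMRT it called 2, TBL1X lower and CORO2A higher, the latter at 52 and 34 counts in the DMSO libraries and at 137, 124 and 273 counts in the treated libraries (adjusted p = 1.68e-05 with DESeq2 and 0.0168 in edgeR). On the side of the acetyltransferases, SAGA/ATAC had 0 of 16, NuA4/TIP60 0 of 15, MSL/NSL 0 of 11 and MOZ/HBO1 0 of 8. DESeq2 called 3 of NuA4/TIP60 lower, YEATS4, BRD8 and ACTL6A, 1 of MSL/NSL lower, 1 of MOZ/HBO1 higher and 0 of SAGA/ATAC. YEATS4, a NuA4/TIP60 subunit that reads acetylated lysine, had a log2 fold change of -1.31 and an adjusted p of 0.0107 in edgeR and 2.55e-06 with DESeq2. The 22 readers were all negative, and 2 passed, ATAD2 at -2.29 (adjusted p = 0.00221 in edgeR) and BAZ1B at -1.02 (adjusted p = 0.00642 in edgeR). ATAD2 is a bromodomain protein known as a partner of E2F factors, and BAZ1B is a subunit of the WICH remodeller.

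The cofactors are acetyl-CoA for the acetyltransferases and NAD for the sirtuins. Of the 9 tested genes of acetyl-CoA supply, 5 were positive and 4 negative, with a median log2 fold change of 0.00 and 0 calls. Of the 13 tested genes of NAD supply and use, which share their cofactor with the sirtuins, 9 were positive, against 51.1% of all genes. The threshold was passed by 3, or 23.1%, 1 higher and 2 lower, against 4.02% of all genes. A list of 13 genes with calls in both directions says little. NADSYN1, which makes NAD in the last step from nicotinic acid, rose from 28.8 ± 1.32 CPM (SD, n = 2) to 141 ± 22.3 CPM (SD, n = 3), with a log2 fold change of 2.29 (adjusted p = 0.00138 in edgeR). PARP2 and PARP1, which spend NAD on poly-ADP-ribose at DNA breaks, had log2 fold changes of -1.87 and -1.09 (adjusted p = 0.00211 and 0.00973 in edgeR). NADSYN1 was called in 3 of the 5 fits without a library, PARP2 in 1 and PARP1 in 0.

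**Figure D5:**
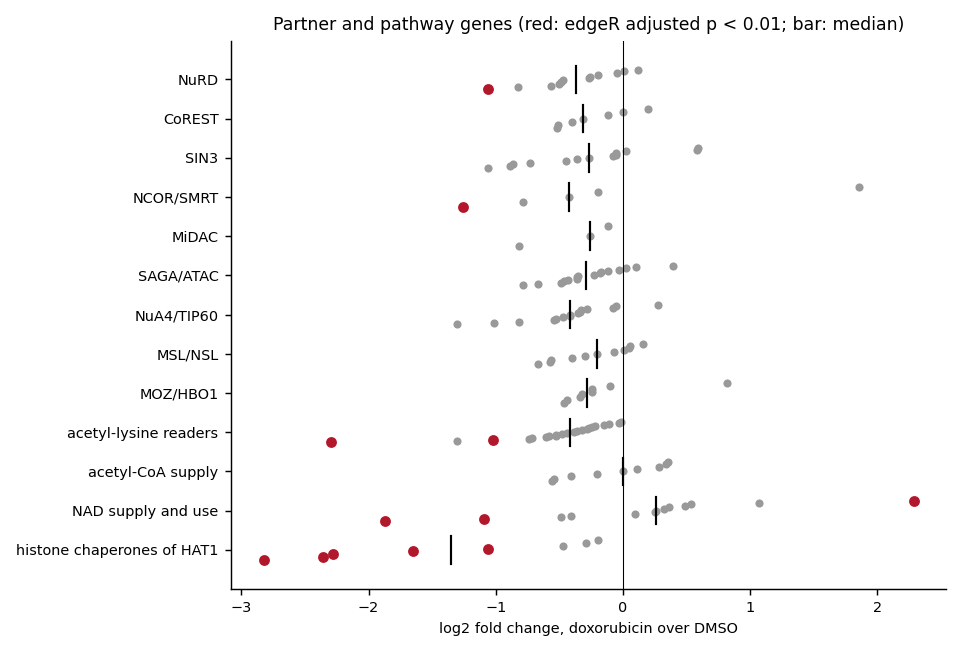
Log2 fold change of doxorubicin over DMSO for the tested genes of 13 lists of acetylation partners, 1 point a gene, with a bar at the median of each list and red for an adjusted p under 0.01 in edgeR. The chaperones of HAT1 have 5 red points of 8 and a median of -1.35, whereas the acetyl-CoA list has none and a median of 0.00.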

How the data were processed

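Poly-A RNA was sequenced from 5 libraries of RPE1 cells. The authors mapped the reads to hg38 with STAR, counted them per gene with Rsubread and deposited raw counts without normalization. Not given in the sources used here are versions, how multi-mapping reads were handled and whether the counting used strand (the library kit was stranded). A further table of the authors holds their DESeq2 comparison (mean normalized counts, log2 fold changes, standard errors, Wald scores, p-values) and was not used, and 0 columns of per-sample values were left out.

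The counts were analysed in R 4.3.3. Libraries were grouped by the treatment in the labels. The main fit was edgeR 4.0.16 (quasi-likelihood, TMM, minimum count 10, minimum total 15) on all genes, 3 doxorubicin against 2 DMSO libraries, with Benjamini-Hochberg adjusted p under 0.01. Standard errors were the absolute log2 fold change over the square root of F. Alternatives used DESeq2 1.42.0, limma 3.58.1 (voom), RLE size factors, no filter, a threshold of 0.05, libraries left out in turn and a replicate block. The scripts were tested on simulated data. Total counts per library were between 23773061 and 36725345 and TMM factors between 0.975 and 1.04. A chi-square over genes with at least 20 counts gave 117 per degree of freedom between the DMSO libraries and 75.3 between those of 0.2 μM, so the libraries were counted as separate. Lengths were exon unions of GENCODE on GRCh37, used for lengths only, and positions and start regions came from RefSeq on GRCh38.p14, with 34 of 34 members matched by symbol, of which 22 are overlapped by at least 1 other annotated gene.

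The members, lists, classes and pairs were chosen from general knowledge with earlier results of these data known. Full statistics were given for members past 0.01 in edgeR or DESeq2 and for the 5 largest absolute log2 fold changes, and of each partner list for the genes past 0.01 in edgeR. Other values are named as examples of a class, and those of single libraries (HDAC9, the ratio of HDAC1 to HDAC2), PMEL, BEST1, PTPRC, YEATS4 and the partner genes called by DESeq2 only (SAP30, SAP130, ING1, ELMSAN1, CORO2A, BRD8, ACTL6A) were picked after they were seen.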

Additional observations from a re-analysis of the deposited data

How the results depend on the processing

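Against 1 member called, the lower HAT1, 2 members were called, both lower, with DESeq2, without the filter on low counts, at a threshold of 0.05 and in the fit with a replicate block of 2 DMSO and 2 of 0.2 μM libraries. In each of these it was HAT1 and SIN3A. With any 1 library left out the count was 0 to 0, all and lower calls alike, and it was 0 in the fit of the same 4 libraries without the block, while the genes called of all genes went from 571 to between 49 and 215. limma voom and RLE size factors gave 1. Where 2 members were called, more of all genes were called too, against 571 of 14187 in the main fit. These were 2026 of 14385 with DESeq2 and 1020 of 20717 without the filter. They were 1927 of 14187 at 0.05 and 1121 of 14187 with the block. The median log2 fold change of the members, -0.0226, was -0.0708 to -0.0274 with libraries left out in turn (-0.0651 without replicate 2 of 0.2 μM, -0.0708 without the 0.34 μM library), -0.0700 with the replicate block and -0.0756 without it in the same libraries. The partner genes called, 11, were 24 with DESeq2 and 23 at 0.05. Replicate numbers are names in these labels: over genes, the difference of replicate 1 from replicate 2 correlated at 0.528 between DMSO and 0.2 μM, over 2 pairs, which is too few to show a pairing. All 55 log2 fold changes of HAT1, SIN3A, SIRT4, HDAC5 and SIRT2 under an alternative kept their direction. With the longest transcript in place of the exon union, 9 of the upper 10 members by level were the same. Single places still moved, such as HDAC3 from 8 to 2, KAT2A from 3 to 9, KAT6B from 26 to 14 and HDAC8 from 33 to 28. The depth allowed few statements on SIRT4, with 1 to 27 counts a library.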
